A study of Mus musculus with 4 samples.

Results

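Abca1 and Atp8b1 are 2 mouse genes for lipid transporters, described here through every interval of 4 ChIP-seq lists that overlapped their windows: chromosome 4, 53030000 to 53190000, for Abca1, and chromosome 18, 64670000 to 64840000, for Atp8b1. Positions are as in the files, on mm9, and run from low to high coordinate. The windows held 24 of 35977 listed intervals, 11 at Abca1 and 13 at Atp8b1. Both genes were chosen with the listed POL2 coverage at both stages in view, so the stage values below describe them and test nothing.

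ABCA1 is an ATP-binding cassette transporter that moves cholesterol and phospholipid out of the cell onto apolipoprotein A-I, the first step in making high-density lipoprotein, and its gene is a known target of the liver X receptors, nuclear receptors that respond to oxysterols. ATP8B1 is a P4-type ATPase, a flippase that moves phospholipid to the inner leaflet of the plasma membrane and needs a CDC50 partner protein. Inherited loss of ATP8B1 in humans causes intrahepatic cholestasis. FOXA2, a forkhead transcription factor, is known in the uterus from the glandular epithelium, and phosphorylation of RNA polymerase II on serine 2 marks the elongating enzyme on gene bodies.

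The groups were whole uterus of adult female mice in pseudopregnancy, with days 2.5 and 3.5 given on a single library and no word on how they were combined, and whole uterus of female mice at postnatal day 12 (PD12). Each stage was precipitated with a goat polyclonal antibody to FOXA2 and with a rabbit polyclonal antibody to the serine 2-phosphorylated repeat of RNA polymerase II (POL2 in the labels). No strain, genotype or adult age was given, and each group was 1 library, so no difference has a replicate check. The lists held 10373 adult and 814 PD12 FOXA2 intervals, and 14818 adult and 9972 PD12 POL2 intervals, called domains here for their width. They hold positions only, so read depth and signal height are unknown, and in whole uterus more cells carrying polymerase and more polymerase per cell cannot be told apart.

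Both genes lay under nearly continuous POL2 domains in the adult and under 2 isolated domains at PD12. At Abca1, POL2 covered 115.0 kb in the adult (71.9% of the window) and 5.2 kb at PD12 (3.25%). At Atp8b1 it covered 131.0 kb in the adult (77.1%) and 9.2 kb at PD12 (5.41%). The adult length was 22.1 times the PD12 length at Abca1 and 14.2 times at Atp8b1, where the whole POL2 lists differed 1.35-fold. FOXA2 was listed in both windows in the adult, with 1 interval at Abca1 and 3 at Atp8b1, and in neither at PD12. The whole FOXA2 lists differed 26.2-fold in covered bases, and 94.4% of adult FOXA2 intervals had no PD12 partner. With the adult list reduced to as many intervals as at PD12, keeping the widest, neither window held FOXA2 at either stage. The narrowest interval kept was 1130 bp and the widest of the 4 was 1039 bp, so all 4 were removed by width. Width is not signal height, so this cut does not match the stages for depth.

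**Figure D1:**
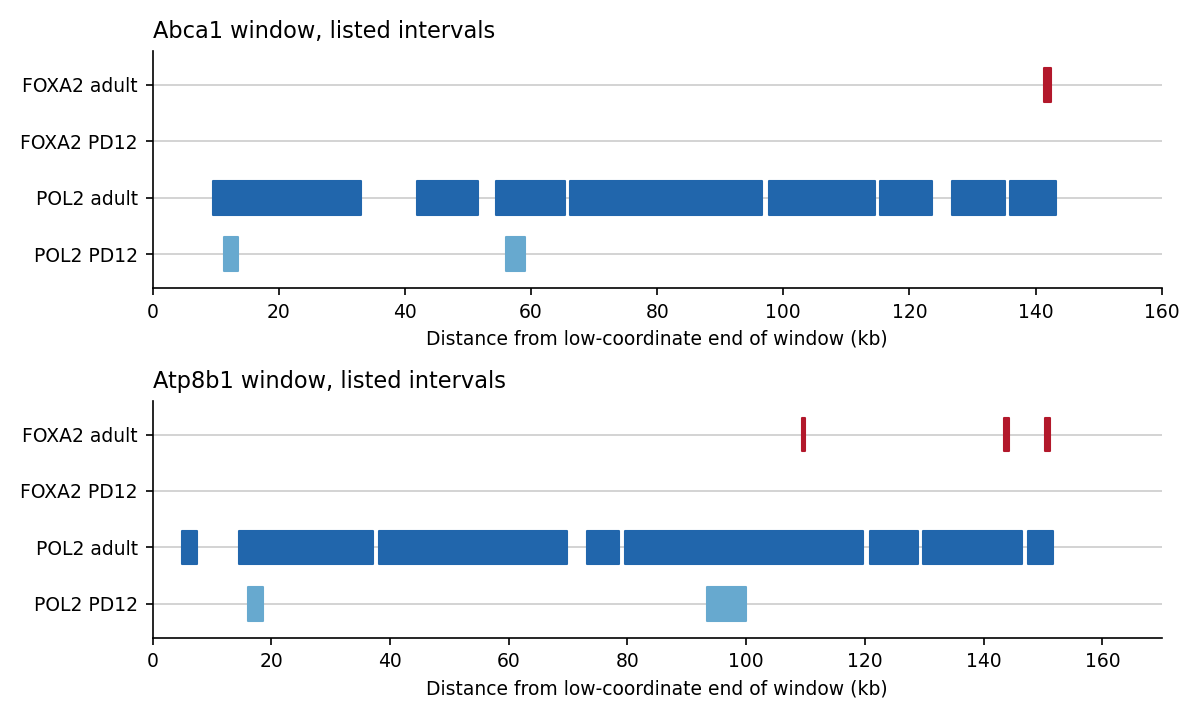
Listed intervals in each window, with distance from the low-coordinate end of the window in kb on the x axis and 1 row per list. Adult POL2 fills most of both windows in 8 domains each, PD12 POL2 has 2 domains in each, adult FOXA2 has 1 interval at Abca1 and 3 at Atp8b1, and PD12 FOXA2 has none.

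At Abca1 the adult POL2 list held 8 domains, 23.4, 9.6, 11.0, 30.4, 16.8, 8.2, 8.4 and 7.2 kb wide in order of position. They ran from 53039600 to 53173199, a span of 133.6 kb. The gap after the first domain was 9.0 kb, and the others were 0.8 to 3.2 kb, so that joining gaps of up to 5 kb left a stretch of 23.4 kb and one of 101.2 kb. The widest domain, 53096200 to 53126599, was among the 120 widest of the 14818 in the adult list.

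At PD12 the Abca1 window held a domain of 2.2 kb, 53041400 to 53043599, and one of 3.0 kb, 53086000 to 53088999. The first started 1800 bp from the low-coordinate end of the adult span. Both lay wholly inside adult domains, and neither reached the high-coordinate 50% of the window, where the adult list covered 57.2 kb. Abca1 lies on the minus strand in the RefSeq promoter table, so its transcription runs from high to low coordinate, and both PD12 domains lay in the 50% of the window nearer the end of transcription.

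At Atp8b1 the adult list also held 8 domains, 2.4, 22.6, 31.6, 5.4, 40.0, 8.2, 16.6 and 4.2 kb wide in order of position. The first, 64675000 to 64677399, stood 7.2 kb apart from the rest. The other 7 were separated by 0.8 to 3.4 kb and joined into a single stretch of 137.0 kb, from 64684600 to 64821599. The 40.0 kb domain, 64749600 to 64789599, was among the 51 widest in the adult list.

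At PD12 the Atp8b1 window held a domain of 2.6 kb, 64686000 to 64688599, and one of 6.6 kb, 64763400 to 64769999. The first started 1400 bp from the low-coordinate end of the 137.0 kb adult stretch. The adult span began lower, at 64675000, whereas the distance at Abca1 was taken from the start of the span. As at Abca1, both lay inside adult domains. Unlike at Abca1, the other PD12 domain lay in the high-coordinate 50% of the window, where POL2 covered 63.6 kb in the adult and 6.6 kb at PD12. The strand of Atp8b1 was not given in the tables used here.

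**Figure D2:**
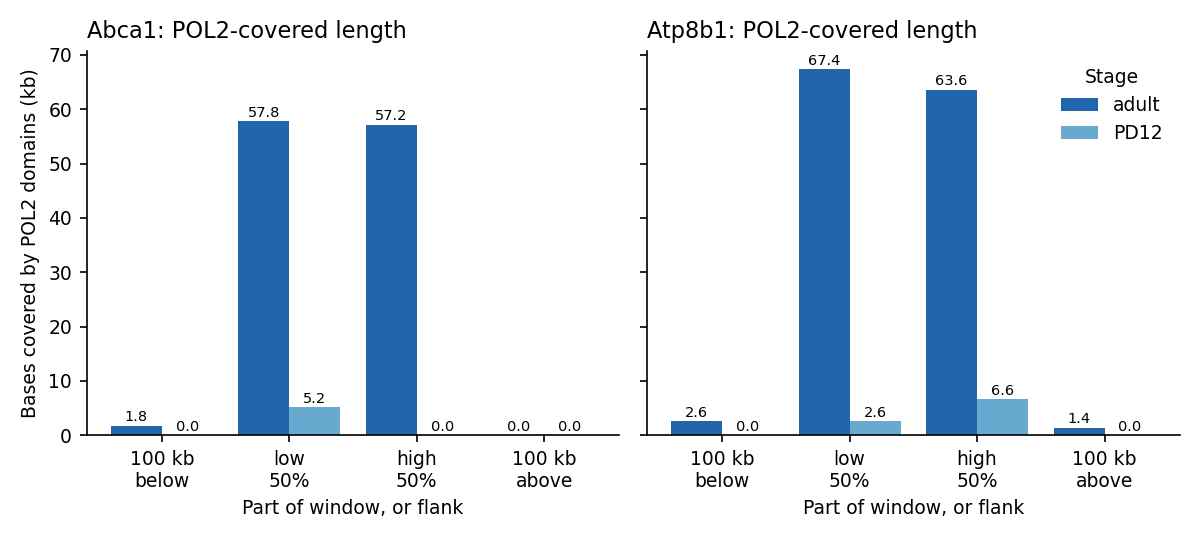
Length covered by POL2 domains (kb) in the adult and at PD12, in the low-coordinate and high-coordinate 50% of each window and in the 100 kb on either side. Adult coverage was 57.2 to 67.4 kb in each part of the windows, and 0 to 2.6 kb in the flanks.

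The POL2 coverage ended close to the window limits at both genes. In the 100 kb below the Abca1 window the adult list covered 1.8 kb, by a domain at 53024400 to 53026199, and in the 100 kb above it covered none. At Atp8b1 the adult list covered 2.6 kb in the 100 kb below and 1.4 kb in the 100 kb above. PD12 POL2 covered none of these 4 flanks, and its nearest domain outside a window was 290.6 kb above Atp8b1. In the GRCm38 RefSeq gene table the neighbouring coding genes are Nipsnap3b and Slc44a1 for Abca1, and Nars and Nedd4l for Atp8b1. An annotation of mm9 was not used here, so which domain belongs to which exon, intron or neighbour is not stated.

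Of the adult POL2 domains, 6 of 8 at Abca1 and 6 of 8 at Atp8b1 overlapped no PD12 domain (75.0% each, exact 95% binomial interval 34.9 to 96.8, for counting error only). Over the whole adult list this share was 45.6%. The counts in the windows depend on the short gaps that split the domains. With gaps of up to 5 kb joined, both Abca1 stretches held PD12 POL2. At Atp8b1 the 137.0 kb stretch held it and the 2.4 kb one did not. Of the PD12 domains, 0 of 4 lacked an adult partner, against 20.1% of the whole PD12 list. The genes were chosen on this contrast, so these shares are given beside each other with nothing read from them.

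Adult domains in the windows were mostly wider than the list they came from, and PD12 domains mostly narrower. Of the 16 adult domains, 14 were wider than the adult median of 4.8 kb, and their own median was 10.3 kb. Of the 4 PD12 domains, 3 were narrower than the PD12 median of 5.4 kb, and the exception was the 6.6 kb domain at Atp8b1. Abca1 had no adult domain under 7.2 kb, whereas Atp8b1 had both the narrowest (2.4 kb) and the widest (40.0 kb) of the 16. Domain widths make up the covered length on which the genes were chosen, so nothing is read from their standing against the lists.

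**Figure D3:**
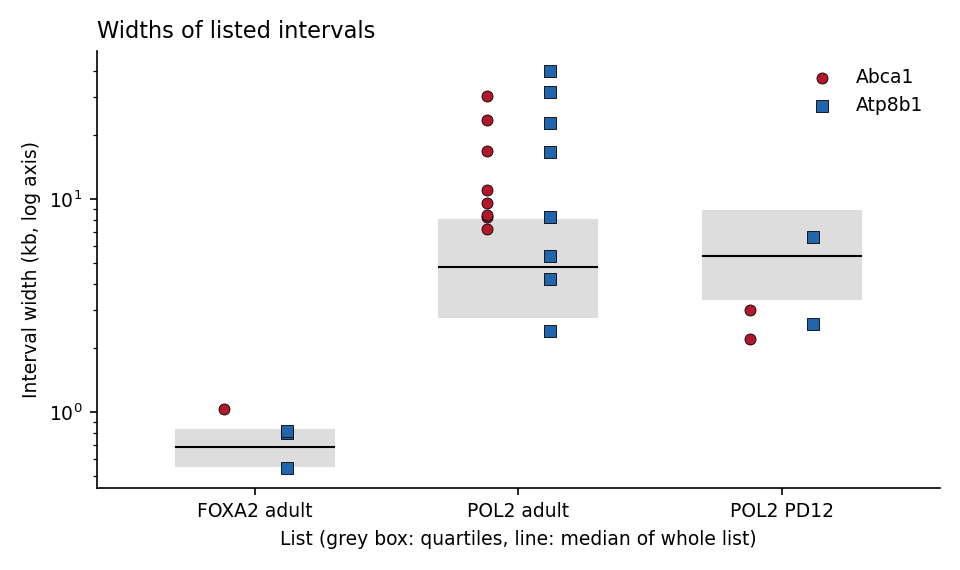
Width of each interval in the Abca1 window (circles) and the Atp8b1 window (squares), in kb on a log axis, over the quartiles (grey box) and median (line) of the whole list. Adult POL2 domains reach 40.0 kb against a list median of 4.8 kb, and 3 of 4 PD12 domains lie under the list median of 5.4 kb.

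The adult FOXA2 interval at Abca1 was at 53171340 to 53172378. It was 1039 bp wide, as wide as or wider than 89.7% of the adult FOXA2 list, whose median was 685 bp. It lay in the last adult POL2 domain of the window, 53166000 to 53173199, and its end was 821 bp from the end of the POL2 stretch. This is the high-coordinate end, the side from which a gene on the minus strand is transcribed, but the start of Abca1 in mm9 was not placed here. The nearest PD12 POL2 domain was 82860 bp from its centre.

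The Abca1 promoter is shown for reference, since FOXA2 and POL2 were listed together on the side of the window from which a gene on the minus strand is transcribed. The sequence is RefSeq's for the 250 bases before the gene start, at chr4:53159896-53160145 of GRCm38.p6, minus strand, read 5′ to 3′. That build differs from mm9, so whether the FOXA2 interval covers it could not be determined here. Capitals mark a match to a forkhead pattern.
Abca1 promoter: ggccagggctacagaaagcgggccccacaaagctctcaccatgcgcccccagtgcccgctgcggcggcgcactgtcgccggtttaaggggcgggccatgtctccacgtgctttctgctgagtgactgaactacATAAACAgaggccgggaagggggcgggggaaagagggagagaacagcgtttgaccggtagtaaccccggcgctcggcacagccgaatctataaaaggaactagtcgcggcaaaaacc
Both strands were searched for 8 forkhead patterns of the form T, A or G, TTT, A or G, C or T, a set chosen after the sequence was read. The promoter held 1 match, to TGTTTAT on the reverse strand, at -117 to -111 from the gene start. This pattern occurred in 4.16% of 32851 RefSeq promoters in the same 250 bases, and any of the 8 occurred in 24.9%. TGTTTAC, which had no match here, occurred in 3.17% of the promoters. A match is a run of letters and not a bound site. The promoter was 61.6% G and C, with a median of 52.4% over all promoters.

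The 3 adult FOXA2 intervals at Atp8b1 were at 64779358 to 64779904 (547 bp), 64813499 to 64814299 (801 bp) and 64820301 to 64821118 (818 bp). The first was narrower than the list median and lay inside the 40.0 kb POL2 domain, 69.4% of the way along the stretch from its low-coordinate end. The other 2 were wider than the median and lay in the last 2 POL2 domains. The one at the highest coordinate ended 481 bp from the high-coordinate end of the stretch, a position like that of the Abca1 interval.

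All 4 adult FOXA2 intervals lay in adult POL2 domains (exact 95% binomial interval 39.8 to 100%), where 19.4% of the whole adult FOXA2 list did. The windows were picked with dense adult POL2, so most positions in them are inside a domain. Of the 4 intervals, 3 lay in the same stretch at Atp8b1. The binomial interval treats the 4 as independent, so it is no test against the 19.4%. None of the 4 overlapped a PD12 POL2 domain (interval 0 to 60.2%), where 11.4% of the adult list did. PD12 domains covered 3.25% of the Abca1 window and 5.41% of the Atp8b1 window, and the genes were chosen on that coverage. None of the 4 overlapped a PD12 FOXA2 interval either, as for 94.4% of the adult list. The nearest PD12 FOXA2 intervals were 3.82 Mb below and 3.89 Mb above the Abca1 window, and 1.61 Mb below and 2.52 Mb above the Atp8b1 window.

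How often FOXA2 lay near the end of a long POL2 stretch depended on the limit. Of 29 adult POL2 stretches of at least 100 kb, 21 held the centre of an adult FOXA2 interval and 2 held one within 2 kb of an end. Those 2 were the stretches of Abca1, 1.34 kb from the end, and Atp8b1, 0.89 kb. The limit of 2 kb was set after these positions were seen, so that both genes meet it by choice, and others lay just outside it, at 2.37 kb on chromosome 11 and 2.38 kb on chromosome 18. With a limit of 5 kb, 6 of the 29 stretches had such an interval, and with 10 kb, 11 did. Among 186 stretches of at least 50 kb, 14 had one within 2 kb of an end.

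The windows were set beside the rest of the genome by tiling all chromosomes end to end in windows of the same length. Adult POL2 covered at least as many bases as at Abca1 in 17 of 16473 windows (0.103%), and at least as many as at Atp8b1 in 5 of 15504 (0.0322%). The tiles lie on a fixed grid that can split a stretch, whereas the gene windows were placed around the genes. A tile of the Abca1 length at chromosome 18, 64640405 to 64800405, held 110.8 kb, where the Atp8b1 window held 131.0 kb. These shares can therefore make the genes look rarer than windows placed in the same way would. PD12 coverage was less unusual, since 20.1% of all windows had as much as Abca1 and 15.5% as much as Atp8b1. These shares, like those for the adult, count windows without POL2, which were the majority. Of the Abca1 length, 5621 windows held POL2 at either stage, and 3313 had as much at PD12 as Abca1. Of the Atp8b1 length, 5438 held POL2, and 2406 had as much at PD12 as Atp8b1. Adult coverage at least 2 times that of PD12 was itself common, in 37.2% of windows of the Abca1 length with POL2 at either stage and 37.3% of those of the Atp8b1 length. That rule also counts windows with little adult POL2 and none at PD12. It is a lower bar than the 22.1 times at Abca1 and 14.2 times at Atp8b1. Of 77 windows of the Abca1 length with adult POL2 over at least 50% of their bases, 16 (20.8%) had PD12 POL2 over at most 10%.

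**Figure D4:**
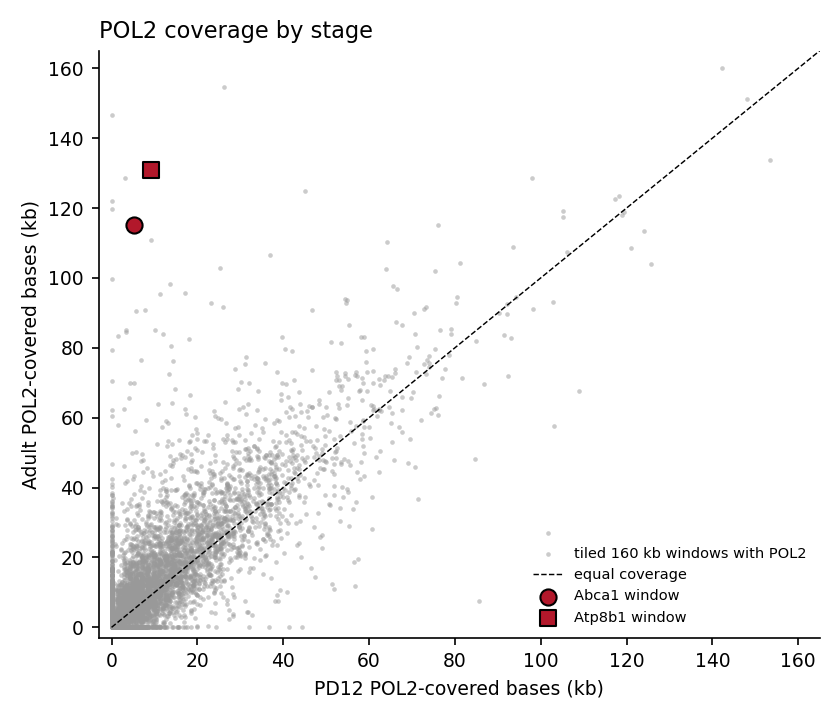
PD12 (x axis) and adult (y axis) bases covered by POL2 domains, in kb, for tiled windows of the Abca1 length with POL2 at either stage (grey) and for the Abca1 (circle) and Atp8b1 (square) windows. Both genes lie far above the line of equal coverage, at 115.0 kb in the adult and 5.2 kb at PD12 for Abca1, and at 131.0 and 9.2 kb for Atp8b1. The tiles lie on a fixed grid and can split a stretch, whereas the gene windows were placed around the genes.

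Merging all POL2 domains, adult and PD12, that stood at most 5 kb apart gave 11353 stretches. By adult minus PD12 length the stretch at Atp8b1 ranked 4, with 128.6 kb of adult and 9.2 kb of PD12 domains. The longer Abca1 stretch ranked 10, with 91.6 kb in the adult and 3.0 kb at PD12, and the shorter ranked 153, with 23.4 and 2.2 kb. The Abca1 rank thus depends on the 9.0 kb gap that splits its domains.

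The number of FOXA2 intervals was common at Abca1 and less so at Atp8b1. At least 1 adult FOXA2 interval was present in 36.0% of windows of the Abca1 length, and at least 3 in 7.59% of windows of the Atp8b1 length. No PD12 FOXA2 interval was present in 95.4% and 95.1% of these windows. Of the 17 windows with as much adult POL2 as Abca1, 10 held an adult FOXA2 interval.

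Each gene was among the windows most like the other in POL2 coverage. Both were chosen on that coverage, so nothing is read from their likeness. By the sum of the differences in adult and in PD12 covered bases, the tiled window closest to Abca1 was chromosome 18, 64640405 to 64800405, most of which lies in the Atp8b1 window, with 110.8 kb of adult and 9.2 kb of PD12 domains. The next were adjoining windows on chromosome 19, at 17760112 to 17920112 (119.7 kb in the adult) and 17600111 to 17760111 (121.9 kb), with no POL2 at PD12 and no FOXA2 interval at either stage. The windows closest to Atp8b1 were chromosome 19, 17680105 to 17850105 (140.8 kb in the adult, none at PD12), chromosome 13, 24650146 to 24820146 (119.5 kb, none), and one at Abca1, chromosome 4, 53040313 to 53210313 (114.3 kb in the adult, 5.2 kb at PD12). The chromosome 13 window held 3 adult FOXA2 intervals, as many as Atp8b1, and that on chromosome 19 held none.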

How the data were processed

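ChIP-seq interval lists of FOXA2 and POL2 were analysed for the adult pseudopregnant and PD12 mouse uterus, 1 library per group. The submitters' processing notes name BWA. The peak caller, threshold, input control and build behind the lists are, like the BWA version, not given in the sources used here. The windows and the name mm9 come from the rule that chose the genes. Per the file headers, the deposited lists give chromosome, start and end only. POL2 starts are all multiples of 200 bp, which limits their precision. Width is end minus start plus 1.

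Intervals were taken if they overlapped a window by at least 1 bp, and covered bases were clipped to it. Intervals were called shared at 1 bp of overlap. Shares have exact (Clopper-Pearson) 95% intervals for counting error only. They treat neighbouring intervals of a window as independent, which was not tested. Tiled windows describe the lists and are not a chance test. The overlap functions were tested on simulated intervals. Python 3.11.15, numpy 2.4.6, pandas 2.3.3 and scipy 1.17.1 were used. Every listed interval in the windows is named, and the 3 tiled windows closest in POL2 bases for each gene. The members, lists and rules were chosen with earlier results of these data known. Other lipid transport genes were not analysed here, since an annotation of mm9 was not used.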

Additional observations from a re-analysis of the deposited data

How the results depend on the processing

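Over 14 results and 72 alternatives, 61 values stayed within 1.5 times the reported one and 11 moved beyond it. POL2-covered lengths moved beyond it under none of the alternatives run. Some alternatives were bound to return the reported value, so the 61 include values fixed in advance. Lists of equal length kept all 9972 PD12 POL2 domains, which left PD12 lengths at 5.2 kb at Abca1 and 9.2 kb at Atp8b1. No POL2 domain crossed a window limit, so counting full lengths left the adult at 115 kb at Abca1 and 131 kb at Atp8b1. With gaps of up to 5 kb joined, adult POL2 domains numbered 2 at Abca1 and 2 at Atp8b1, in place of 8 each. With lists of equal length, made of the widest intervals because no score is given, adult FOXA2 intervals, and those in adult POL2 domains, numbered 0 at Abca1 and 0 at Atp8b1, since the narrowest interval kept was 1130 bp. With windows widened by 50 kb, Abca1 had 2 adult FOXA2 intervals. Adult domains overlapping a PD12 domain numbered 2 at each gene, and 0 at each when 50% of both had to be covered or centres had to lie within 500 bp. The 50% rule could only return 0, since every PD12 domain was narrower than 50% of its adult partner. The pairs were 2.2 in 23.4 kb and 3.0 in 11.0 kb at Abca1, and 2.6 in 22.6 kb and 6.6 in 40.0 kb at Atp8b1. The limits for FOXA2 at the ends of stretches and the forkhead patterns were chosen after the data were seen. No paired analysis was possible because there is only 1 library for each antibody and stage. Unknown read depth limits every comparison of stages.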

Other observations

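Adult FOXA2 intervals were also listed outside the windows, on the same side by coordinate at both genes. The strand of Atp8b1 was not given, so whether this is the same side in the direction of transcription is unknown. In the 100 kb above the Abca1 window there were 3, starting 44.7, 50.6 and 71.7 kb from it, and in the 100 kb above the Atp8b1 window there were 3, starting 32.2, 50.2 and 52.0 kb from it. None was listed in the 100 kb below either window. How many 100 kb stretches of the genome hold as many, or none, was not counted. In the longer tiled windows of the Atp8b1 length, 7.59% held at least 3, and in those of the Abca1 length, 36.0% held at least 1. None of the 6 listed above the windows lay in an adult POL2 domain. Adult POL2 covered none of this flank at Abca1 and 1.4 kb of it at Atp8b1, and 19.4% of the whole adult FOXA2 list lay in a domain. They were chosen after their positions were seen, and which gene they lie nearest to in mm9 was not determined here.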
